A study of Rattus norvegicus with 12 samples.

Results

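The Wnt and BMP ligands, receptors and secreted antagonists were followed in the dorsal striatum of rats with a unilateral dopamine lesion. Their probes were chosen by gene name alone: every non-control probe named Wnt, Fzd, Dkk, Sfrp or Bmp followed by a digit, every name starting with Bmpr, and Nog, Chrd, Grem1, Wif1, Lrp5 and Lrp6. The rule found 73 probes for 51 of the 35608 gene names on the array, and the brightest probe stood for each gene. All 12 rats were male, had received 9 µg of 6-OHDA in the left substantia nigra pars compacta, and were kept in the study only with a large loss of striatal dopamine terminals. The 6-OHDA group received nothing further. The DOPA group received 25 mg/kg L-DOPA with 12.5 mg/kg benserazide, injected 2 times a day for 19 days, a dyskinesia-inducing schedule. The HFS group received continuous high frequency stimulation of the subthalamic nucleus (130 Hz, 80 µs, 60 µA) for 5 days through an electrode on the lesion side, and the DOPA/HFS group received the same L-DOPA schedule with stimulation over its last 5 days. Each group held 3 rats with 1 array each, the tissue being punches pooled from thick sections of the striatum of 1 rat. No unlesioned rat was among the arrays, so every value is that of a denervated striatum, and electrode implantation, described for the stimulated groups, and stimulation itself cannot be told apart.

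Wnt proteins are secreted lipid-modified ligands that bind Frizzled (Fzd) receptors with the co-receptors Lrp5 and Lrp6, which stabilises β-catenin or engages calcium and polarity pathways. Sfrp proteins and Wif1 bind the ligands outside the cell, and Dkk1 and Dkk4 block the co-receptors. BMPs are ligands of the TGF-β superfamily that assemble type I (Bmpr1a, Bmpr1b) and type II (Bmpr2) receptor kinases to phosphorylate SMAD proteins, and Nog, Chrd and Grem1 capture these ligands. Both systems pattern the embryonic forebrain, and in the adult brain they act in neurogenesis by the lateral ventricle and at synapses.

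Values are log2 of the background-corrected signal after quantile normalization, and a log2 difference of 1 is a doubling. The scanner software called between 50.5% and 63.2% of spots well above background on each array. Each of the 3 slides held 1 array of each group, with the slide following the replicate number, but a group always lay at the same position on the slide, so position and treatment cannot be told apart. Striatal projection neuron markers were well above background for 9 or 10 of 10 genes on every array, and at most 1 of 2 cortex markers was. DOPA/HFS replicate 1 stood apart: Pdyn, the dynorphin precursor that responds to L-DOPA, read 14.7 there against 15.9 and 15.8 on the other DOPA/HFS arrays, 16 to 16.2 on the DOPA arrays and 14.5 to 14.8 on the 6-OHDA arrays. DOPA/HFS replicate 3 carried 4175 outlier spots against 2 to 25 elsewhere, and its outlier spots were left out. Before normalization 6-OHDA replicate 2 was the dimmest array, with a 75th percentile of the log2 signal of 8.70 against 9.07 to 9.99 elsewhere. Its share of spots well above background, 56.2%, was not the lowest. The part of its dimness in the values that turned on it was not tested. The log2 of the summed signal of 8 choroid plexus markers was higher on the HFS arrays (12.0 to 16.4) than on the 6-OHDA arrays (7.69 to 8.43). It reached 13.9 on 1 DOPA array. On the HFS arrays most of this sum was Ttr, at 11.9 to 16.3 against 5.80 to 6.59 in 6-OHDA. Clic6, Kcne2 and Kcnj13 were also higher on all HFS arrays. Otx2, Kl, F5 and Cldn2 overlapped, as did Folr1 and Slc4a5, which were left out of the sum for a missing value. The summed signal of 8 leptomeninges markers was also higher on the HFS arrays (12.9 to 13.7) than on the 6-OHDA arrays (12.5 to 12.9). Most of this sum was Igf2, at 12.4 to 13.4 in HFS against 11.8 to 12.2 in 6-OHDA. Ogn was also higher on all HFS arrays (7.81 to 8.35 against 7.52 to 7.71). Col1a1, Col1a2, Col3a1, Dcn, Slc6a13 and Aldh1a2 overlapped, so the higher sum was not shared by the list as a whole. The part of the choroid plexus and leptomeninges lists in the HFS differences of the Wnt and BMP genes was not tested. With 3 rats a group, the p-values measure only the spread between these 12 samples, and in bulk tissue fewer cells of a type and less RNA per cell cannot be told apart.

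The promoters of the 4 genes with the lowest unadjusted p in the pairwise comparisons are shown, since Wnt10a and Grem1 followed each other from array to array and Nog and Wnt2b differed the other way. Each is the window of 250 bases before the annotated start, read 5′ to 3′ on the strand of the gene, from RefSeq on the rat assembly GRCr8. They lie at chr9:83798344-83798593 (Wnt10a, plus strand), chr3:120978320-120978569 (Grem1, minus strand), chr10:74627502-74627751 (Nog, minus strand) and chr2:195156946-195157195 (Wnt2b, minus strand). Capitals mark every match to a motif searched on both strands.
Wnt10a: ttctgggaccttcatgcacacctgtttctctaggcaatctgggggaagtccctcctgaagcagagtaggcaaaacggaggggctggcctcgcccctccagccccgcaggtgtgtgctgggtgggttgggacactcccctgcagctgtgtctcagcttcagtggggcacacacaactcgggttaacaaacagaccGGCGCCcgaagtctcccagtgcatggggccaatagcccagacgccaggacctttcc
Grem1: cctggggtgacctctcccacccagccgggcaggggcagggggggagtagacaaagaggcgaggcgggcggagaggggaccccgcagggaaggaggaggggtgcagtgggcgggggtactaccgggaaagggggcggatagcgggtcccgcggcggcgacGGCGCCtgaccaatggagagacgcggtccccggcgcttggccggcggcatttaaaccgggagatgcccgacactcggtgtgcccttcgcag
Nog: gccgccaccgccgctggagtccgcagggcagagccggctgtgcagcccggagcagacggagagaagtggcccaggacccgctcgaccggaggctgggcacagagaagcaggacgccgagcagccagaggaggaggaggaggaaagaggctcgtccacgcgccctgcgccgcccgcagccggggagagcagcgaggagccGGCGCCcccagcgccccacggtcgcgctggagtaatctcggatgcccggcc
Wnt2b: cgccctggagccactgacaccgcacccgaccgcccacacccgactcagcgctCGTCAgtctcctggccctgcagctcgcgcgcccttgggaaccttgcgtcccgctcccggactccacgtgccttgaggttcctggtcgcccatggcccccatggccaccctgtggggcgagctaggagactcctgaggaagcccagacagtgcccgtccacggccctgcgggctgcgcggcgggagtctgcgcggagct
The windows of Wnt10a, Grem1 and Nog each held a single GGCGCC, a letter string that SMAD1/5 can bind, starting 56, 91 and 51 bases before the start. That of Wnt2b held TGACG, the core of the cAMP response element, on the opposite strand. Promoter entries were found for 35 of the 51 genes, of which 10 held GGCGCC, against 8.69% of all 33469 windows, while the median GC content was 66.4% in the 35 and 51.2% in all, and the part of GC content in that share was not tested. TGACG was in 5 of the 35 and in 18.2% of all windows. The full cAMP response element TGACGTCA, which contains TGACG, was in none of the 35 and in 1.59% of all. The AP-1 site TGANTCA (6.34% of all) and the TCF/LEF site ATCAAAG (3.15% of all) were both found in Bmpr1a alone. A match describes letters in the window and not a bound site.

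Of the 51 genes, 29 passed the limit of a signal well above background on at least 5 of the 12 arrays and were tested, and 22 of them were detected on all 12. The tested Wnt ligands were Wnt2, Wnt2b, Wnt4, Wnt5b, Wnt7a, Wnt7b, Wnt10a and Wnt11, that is 8 of 18. Of the Wnt receptors and co-receptors 6 of 10 were tested (Fzd1, Fzd2, Fzd3, Fzd7, Fzd9 and Lrp6), and of the Wnt antagonists 4 of 8 (Dkk3, Sfrp1, Sfrp2 and Wif1). Of the BMP ligands 4 of 7 were tested (Bmp2, Bmp4, Bmp6 and Bmp7), of the receptors Bmpr1a and Bmpr2, and all 3 antagonists. The other 2 share the name but are no ligand, receptor or antagonist: Bmp1 is a protease that cleaves procollagens and chordin, and Bmp2k is an intracellular kinase.

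A signal well above background was seen on no array for 16 genes: Wnt3, Wnt3a, Wnt5a, Wnt8b, Wnt9a, Wnt9b, Wnt10b, Fzd4, Fzd6, Lrp5, Dkk1, Dkk4, Bmp3, Bmp5, Bmp15 and Bmpr1b. Another 6 were seen on too few arrays to be tested: Wnt1, Wnt6, Wnt8a and Fzd5 on 1 array each, Sfrp4 on 3 and Sfrp5 on 4. Wnt8a, an embryonic Wnt ligand, read 8.18 on 6-OHDA replicate 2 and 2.68 to 2.87 on the other 11 arrays, a value carried by 1 probe on 1 array. Among the tested genes, Wnt7b and Bmp2k were well above background on 7 arrays and Wnt2b, Wnt7a, Wnt11, Fzd3 and Fzd9 on 11. No tested gene was below background throughout a group, so no fold change here is only a bound. No probe of the 51 was saturated.

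**Figure D1:**
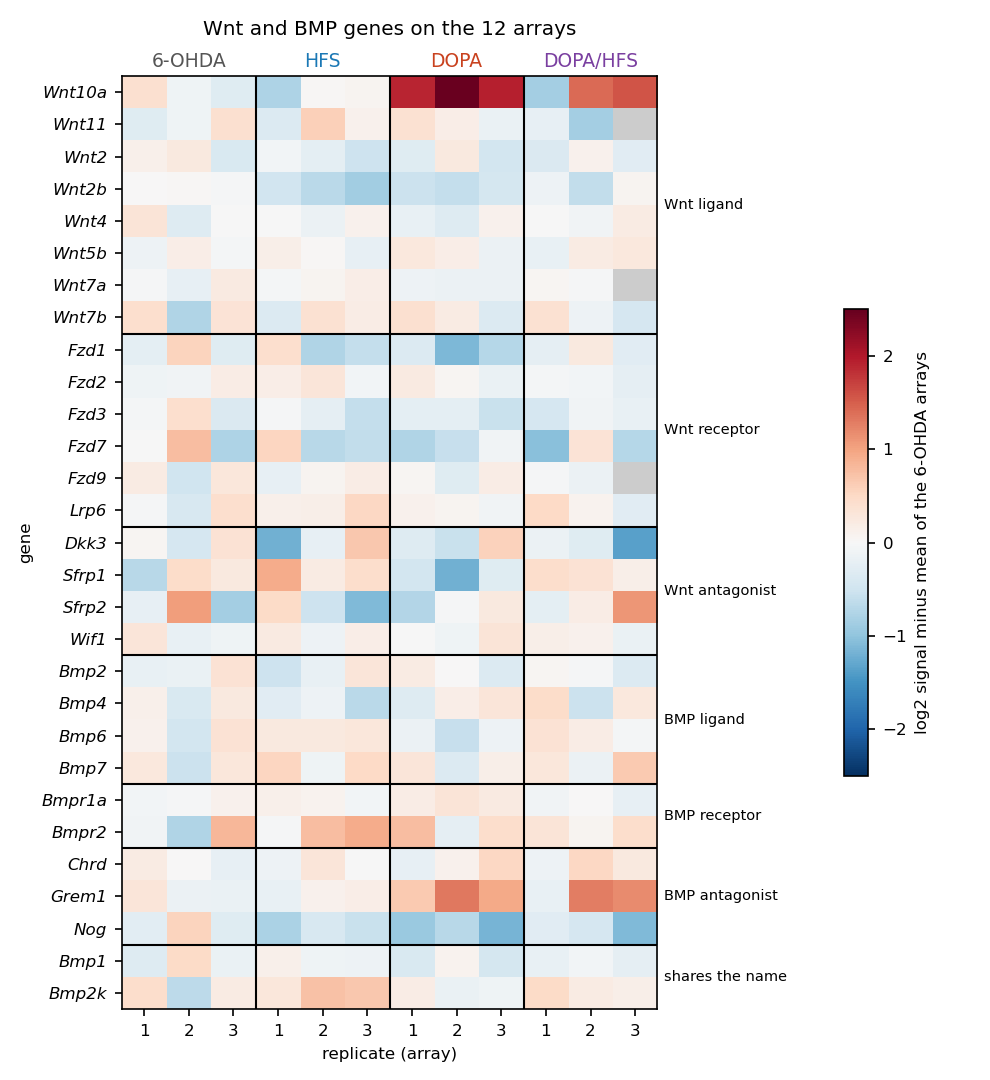
Log2 signal of the 29 tested genes (rows, ordered by role) on the 12 arrays (columns, numbered by replicate within the 4 groups), each minus the mean of the 6-OHDA arrays; grey marks an outlier spot left out. Wnt10a and Grem1 are high on all 3 DOPA arrays and on DOPA/HFS replicates 2 and 3 but not on DOPA/HFS replicate 1, and Nog is low on the DOPA arrays.

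None of the 29 genes was called in any comparison by limma, at an adjusted p under 0.1 over all 20408 genes tested and a fold over 1.2 or under 0.8. Over all genes, 0% were called in HFS against 6-OHDA, in DOPA/HFS against 6-OHDA, in the stimulation main effect and in the interaction. In DOPA against 6-OHDA, in the L-DOPA main effect (both L-DOPA groups against both others) and in the F test over the 4 groups it was 0.0049%, a single gene each time that is not among the 29. At an unadjusted p under 0.05, 1 of the 29 genes passed in HFS against 6-OHDA, where 2.35% of all genes did, 4 in DOPA against 6-OHDA (2.59% of all) and 1 in DOPA/HFS against 6-OHDA (2.75% of all). It was 3 in the L-DOPA main effect (2.73% of all), 3 in the stimulation main effect (4.36%), 2 in the interaction (1.98%) and 5 in the F test (2.82%).

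The pairwise comparisons share the same 3 6-OHDA arrays, so their values are given side by side only. The 3 arrays of both groups lay apart, with a fold over 1.2 or under 0.8, for 2 of 29 genes in HFS (Nog and Wnt2b, both lower; 3.2% of all genes). They did for 5 of 29 in DOPA (Wnt10a and Grem1 higher, Nog, Wnt2b and Fzd1 lower; 3.88% of all genes) and for 0 of the 26 genes with all values in DOPA/HFS (2.79% of all). Without DOPA/HFS replicate 1 it was 4 in DOPA/HFS, where 6.72% of all genes did so with 1 array fewer. The median log2 fold change of the 29 genes against 6-OHDA was 0.01 after HFS, −0.04 for DOPA and 0.01 for the DOPA/HFS group, while that over all genes was 0.01, −0.01 and −0.01. The 95% interval lay within a doubling or halving for 19, 20 and 20 of the 29 genes. These were 65.5%, 69% and 69%, against 78.6%, 81% and 78.2% of all genes. For the rest of the 29, the arrays limit how small a change could be seen. The spread between arrays of a group, as a pooled SD, had a median of 0.31 over the 29 genes and 0.27 over all genes, from 0.09 for Bmpr1a to 0.76 for Sfrp2 and Wnt10a.

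Among the Wnt ligands, Wnt10a, which signals through β-catenin, was 4.30-fold higher in DOPA than in 6-OHDA. Its signal on the 3 arrays was 8.64, 8.15 and 7.95 in 6-OHDA and 10.14, 10.72 and 10.2 in DOPA. It was 7.48, 8.27 and 8.32 in HFS, and 7.39, 9.67 and 9.81 in DOPA/HFS. All DOPA arrays and DOPA/HFS replicates 2 and 3 were above every 6-OHDA and HFS array, while DOPA/HFS replicate 1 was the lowest of the 12. The log2 fold change in DOPA was 2.11 (SE 0.54, limma unadjusted p = 0.00245, adjusted p = 1), higher on 3 of 3 slides by 1.5 to 2.57. The exact permutation test gave p = 0.1, the smallest that 3 against 3 arrays allow. The L-DOPA main effect was 1.52 (SE 0.38, adjusted p = 0.990, exact permutation p = 0.02 within stimulation strata, the smallest possible being 0.005).

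The call on Wnt10a turned on 1 array. Without DOPA/HFS replicate 1 the fold change in DOPA was still 2.11, but its SE was 0.27 and its adjusted p 0.0403, so that it was 1 of the 29 genes called, where 0.0637% of all genes were. The L-DOPA main effect by limma was then 1.91 (SE 0.20, adjusted p = 0.00745), and Wnt10a and Grem1 were both called, where 0.137% of all genes were. The F test called 1 of the 29 genes, with 0.0686% of all. The array left out was the lowest of the 12 for both genes, so leaving it out lowers their spread by itself. These calls are therefore no separate evidence, and no other array left out gave a call. A second Wnt10a probe, also well above background on all 12 arrays, read 6.42, 5.56 and 5.81 in 6-OHDA, 5.56, 6.01 and 6.08 in HFS, 7.48, 7.80 and 7.73 in DOPA and 5.46, 6.87 and 7.47 in DOPA/HFS. Both probes were highest on DOPA replicate 2 and lowest on DOPA/HFS replicate 1, and the log2 fold change of the second in DOPA was 1.74 (SE 0.44). The summed signal of 9 striatal projection neuron markers, Pdyn among them, ran from 17.7 to 18.0 (log2) in 6-OHDA, 17.8 to 17.9 in HFS, 18.0 to 18.2 in DOPA and 17.8 to 18.1 in DOPA/HFS. Of the 9, only Pdyn was higher on all DOPA arrays than on all 6-OHDA arrays (16 to 16.2 against 14.5 to 14.8). Adora2a was lower on all of them (14.97 to 15.26 against 15.31 to 15.47), and the others overlapped. The part of this sum in the Wnt10a values was not tested. The summed signal (log2) of 4 endothelium markers was also higher in DOPA, at 13.04, 13.23 and 12.97 against 12.82, 12.78 and 12.81 in 6-OHDA. It ran from 12.5 to 13.0 in HFS and 12.7 to 12.9 in DOPA/HFS. Of the 4, only Cldn5 lay higher on all DOPA arrays (12.94 to 13.20 against 12.76 to 12.78 in 6-OHDA), while Flt1, Pecam1 and Tek overlapped. Vwf, left out of the sum for a missing value, overlapped too. The part of the endothelium sum in the values of Wnt10a and of the other genes higher in DOPA was not tested either.

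Wnt2b, a Wnt ligand best known from development, was lower in HFS and in DOPA. It read 6.03, 6.04 and 5.99 in 6-OHDA, 5.54, 5.35 and 5.16 in HFS, 5.48, 5.43 and 5.59 in DOPA and 5.89, 5.41 and 6.09 in DOPA/HFS. Every HFS and DOPA array was below the narrow range of the 6-OHDA arrays, and the DOPA/HFS arrays spanned both levels. The log2 fold change was −0.67 in HFS (SE 0.18, limma unadjusted p = 0.00321, adjusted p = 0.998; −0.49 to −0.83 within slides). In DOPA it was −0.52 (SE 0.18, limma unadjusted p = 0.0141, adjusted p = 1; −0.40 to −0.61 within slides). The interaction was 0.97 (SE 0.25, limma unadjusted p = 0.00279, adjusted p = 1). The signal of this single probe was weak: normexp background correction or the deposited table took the HFS value to as little as −0.23, the DOPA value to −0.22 and the interaction to 0.28.

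**Figure D2:**
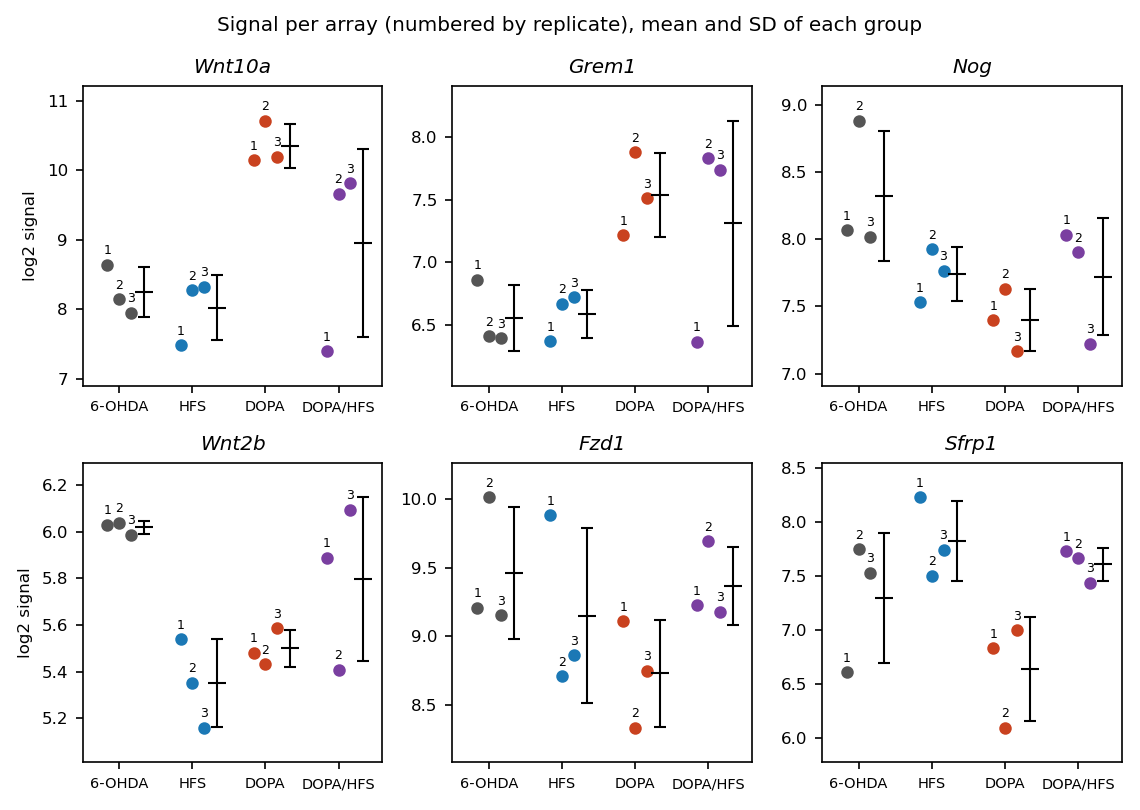
Log2 signal (vertical axis) of 6 genes on each array, with points numbered by replicate and the mean and SD of the 3 arrays of each group in black. Wnt10a and Grem1 share the low DOPA/HFS replicate 1, Wnt2b shows the tight 6-OHDA arrays at 5.99 to 6.04, and 6-OHDA replicate 2 is the highest array for Nog and Fzd1.

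The other tested Wnt ligands varied within their groups. Wnt11, which acts mainly through β-catenin-independent routes, ranged from 9.52 to 10.97, with 10.07, 10.25 and 10.78 in 6-OHDA and 10.15 and 9.52 in DOPA/HFS, where replicate 3 was an outlier spot and was dropped from the fit. Wnt7a and Wnt7b, ligands needed for the brain vasculature, ranged from 9.58 to 9.99, with the same array dropped, and from 4.61 to 5.77. Wnt4, Wnt5b and Wnt2 ranged from 7.83 to 8.49, 9.27 to 9.75 and 6.83 to 7.6. None of these 6 genes had an unadjusted p under 0.05 in a comparison.

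Of the receptors, Fzd1 was the only one whose arrays lay apart, in DOPA. It read 9.21, 10.02 and 9.15 in 6-OHDA, 9.88, 8.71 and 8.86 in HFS, 9.11, 8.33 and 8.75 in DOPA and 9.23, 9.69 and 9.18 in DOPA/HFS. The lowest 6-OHDA value was only just above the highest DOPA value, and 6-OHDA replicate 2 was the highest of all 12 arrays. The log2 fold change in DOPA was −0.73 (SE 0.34, limma unadjusted p = 0.0567, adjusted p = 1), with −0.10, −1.68 and −0.41 on the 3 slides. Without 6-OHDA replicate 2 it was −0.45. The study's own list of L-DOPA genes, drawn from these same arrays, names Fzd1, so this is no independent evidence of its direction.

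Fzd7 read 7.29, 8.06 and 6.52 in 6-OHDA, 7.82, 6.59 and 6.68 in HFS, 6.53, 6.71 and 7.2 in DOPA and 6.25, 7.64 and 6.57 in DOPA/HFS. Both genes were highest within their group on 6-OHDA replicate 2, HFS replicate 1 and DOPA/HFS replicate 2, but in DOPA Fzd7 was lowest on replicate 1, where Fzd1 was highest. Each group's Fzd7 arrays overlapped those of 6-OHDA. The summed signal (log2) of Cspg4 and Rgs5 stood for the mural cell list, as only these 2 genes had all values. It ran from 12.2 to 12.5 in 6-OHDA, 12.0 to 12.4 in HFS, 12.0 to 12.3 in DOPA and 11.8 to 12.5 in DOPA/HFS. Most of it was Cspg4, at 11.5 to 12.3 against 9.11 to 9.94 for Rgs5, while Pdgfrb and Tagln were left out for a missing value. The part of this sum in the Fzd1 and Fzd7 values was not tested. Fzd2, Fzd3, Fzd9 and the co-receptor Lrp6 ranged from 9.39 to 9.92, 6.20 to 7.21, 8.22 to 9.00 and 7.10 to 8.00, and none of them had an unadjusted p under 0.05 in a comparison; DOPA/HFS replicate 3 was dropped for Fzd9.

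Among the Wnt antagonists, Sfrp1, which binds Wnt ligands, was higher in the stimulated groups. It read 6.61, 7.75 and 7.53 in 6-OHDA, 8.23, 7.50 and 7.74 in HFS, 6.83, 6.09 and 7.0 in DOPA and 7.73, 7.66 and 7.44 in DOPA/HFS. All DOPA/HFS arrays were above all DOPA arrays, but the HFS and 6-OHDA arrays overlapped. The stimulation main effect (both stimulated groups against both others) was 0.75 (SE 0.23, 1.68-fold, limma unadjusted p = 0.00723, adjusted p = 0.911, exact permutation p = 0.025 within L-DOPA strata). It was 0.41 with the deposited values.

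The ependyma markers moved with Sfrp1. Of 6 listed markers 4 were on the array, and Foxj1, the defining factor of ciliated cells, was well above background on all 12 arrays. Foxj1 read 10.43, 12.60 and 11.54 in 6-OHDA, 12.45, 11.63 and 12.01 in HFS, 11.27, 10.74 and 11.10 in DOPA and 11.97, 11.22 and 11.69 in DOPA/HFS. The log2 of the summed signal of the 4 genes ran from 11.1 to 13.2 in 6-OHDA, 12.3 to 13.1 in HFS, 11.4 to 11.9 in DOPA and 11.9 to 12.6 in DOPA/HFS. Like Sfrp1, it was low on 6-OHDA replicate 1 and on all DOPA arrays and high on HFS replicate 1, and its part in the Sfrp1 difference was not tested.

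**Figure D3:**
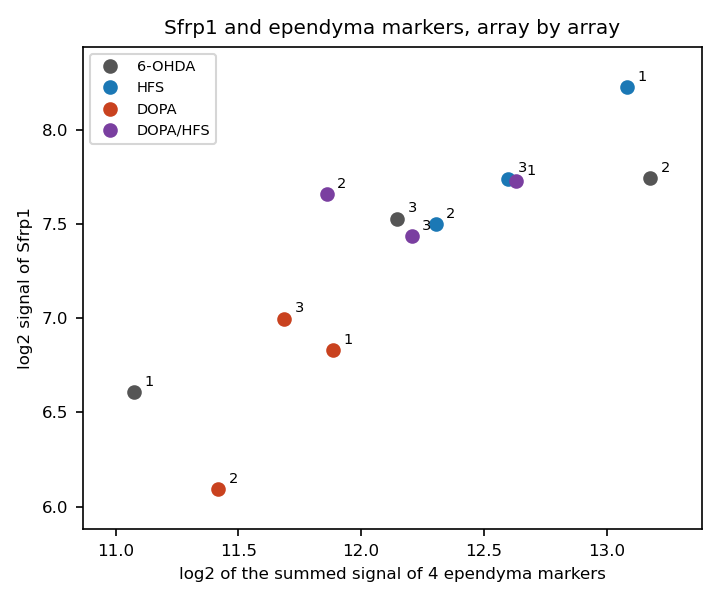
Log2 signal of Sfrp1 (vertical axis) against the log2 of the summed signal of 4 ependyma markers (horizontal axis) on the 12 arrays, coloured by group and numbered by replicate. The 4 arrays with the lowest Sfrp1 values, 6-OHDA replicate 1 and the DOPA arrays, lie between 11.1 and 11.9 on the horizontal axis, with DOPA/HFS replicate 2 also at 11.9.

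Sfrp2, another secreted Frizzled-related protein, gave different answers from its 3 probes. The brightest read 6.78, 8.03 and 6.13 in 6-OHDA, 7.46, 6.47 and 5.88 in HFS, 6.26, 6.95 and 7.23 in DOPA and 6.74, 7.17 and 8.08 in DOPA/HFS, and every group overlapped the 6-OHDA arrays. Its log2 fold change in DOPA was −0.17 (SE 0.54, limma unadjusted p = 0.761, adjusted p = 1), and it turned to 0.36 without 6-OHDA replicate 2 and to 0.11 without DOPA replicate 1. The second probe read 6.24, 6.68 and 6.53 in 6-OHDA and 6.01, 5.70 and 5.79 in DOPA, with no overlap and a log2 fold change of −0.65 (SE 0.21). The third gave −0.66 (SE 0.37), its highest DOPA array, at 5.7496, lying just below its lowest 6-OHDA array, at 5.7527. The study's L-DOPA list names Sfrp2 from these arrays, so the list is not independent of these values. Dkk3, a member of the Dickkopf family that is widely present in neurons, ranged from 9.14 to 11.18, its lowest array being DOPA/HFS replicate 3, and Wif1 stayed between 8.19 and 8.71.

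The BMP ligands differed little between groups. Bmp6 read 7.82, 7.25 and 8.08 in 6-OHDA, 7.96, 7.97 and 7.99 in HFS, 7.57, 7.14 and 7.6 in DOPA and 8.08, 7.91 and 7.66 in DOPA/HFS. The DOPA/HFS arrays lay above the DOPA arrays, and the HFS arrays fell inside the range of 6-OHDA. The stimulation main effect was 0.35 (SE 0.15, limma unadjusted p = 0.0422, adjusted p = 0.911, exact permutation p = 0.045), and 0.16 with the deposited values. Bmp2 ranged from 8.28 to 9.14, Bmp4 from 7.56 to 8.69 and Bmp7 from 6.07 to 7.28, with groups overlapping in every pairwise comparison with 6-OHDA.

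Of the receptors, the type I receptor Bmpr1a was the steadiest of the 29 genes. It read 9.85, 9.88 and 10.02 in 6-OHDA, 10.04, 10.0 and 9.84 in HFS, 10.10, 10.24 and 10.14 in DOPA and 9.83, 9.92 and 9.72 in DOPA/HFS. The DOPA arrays were above all others, though the difference from 6-OHDA did not reach the fold limit of 1.2. A second Bmpr1a probe, well above background on 11 arrays, did not show this. It read 6.26, 4.89 and 6.08 in 6-OHDA and 6.04, 6.45 and 5.99 in DOPA, with overlap. The type II receptor Bmpr2 read 7.30, 6.64 and 8.23 in 6-OHDA, 7.36, 8.16 and 8.32 in HFS, 8.17, 7.17 and 7.84 in DOPA and 7.72, 7.46 and 7.84 in DOPA/HFS, and its 6-OHDA arrays alone spanned nearly its whole range.

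The BMP antagonists went different ways in DOPA: Grem1 was higher and Nog lower. Grem1 (gremlin), which captures BMP ligands such as Bmp2 and Bmp4, read 6.86, 6.41 and 6.39 in 6-OHDA, 6.37, 6.67 and 6.72 in HFS, 7.22, 7.88 and 7.51 in DOPA and 6.36, 7.83 and 7.74 in DOPA/HFS. As for Wnt10a, the DOPA arrays and DOPA/HFS replicates 2 and 3 were above all 6-OHDA and HFS arrays, and DOPA/HFS replicate 1 was the lowest of the 12. The log2 fold change in DOPA was 0.98 (SE 0.35, 1.97-fold, limma unadjusted p = 0.0163, adjusted p = 1; 0.35 to 1.47 within slides). The L-DOPA main effect was 0.85 (SE 0.24, adjusted p = 1, exact permutation p = 0.025), and 1.09 (SE 0.15, adjusted p = 0.0353) without DOPA/HFS replicate 1. In DOPA/HFS itself, the log2 fold change without that array was 1.23 for Grem1 and 1.49 for Wnt10a (limma adjusted p = 0.448 and 0.500). Leaving out the lowest array of an L-DOPA group raises these values by itself. A second Grem1 probe, well above background on 2 arrays only, gave 0.52 in DOPA (SE 0.38) and its arrays overlapped.

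Nog (noggin), an extracellular trap for BMP ligands, was lower in all treated groups by its mean. It read 8.07, 8.88 and 8.02 in 6-OHDA, 7.53, 7.93 and 7.76 in HFS, 7.40, 7.63 and 7.17 in DOPA and 8.03, 7.90 and 7.22 in DOPA/HFS. The HFS and DOPA arrays were all below the 6-OHDA arrays, and DOPA/HFS replicate 1 reached into their range. The log2 fold change was −0.92 in DOPA (SE 0.27, 0.527-fold, limma unadjusted p = 0.00613, adjusted p = 1; −0.67 to −1.25 within slides). It was −0.58 in HFS (SE 0.27, limma unadjusted p = 0.0565, adjusted p = 0.998; −0.25 to −0.96 within slides). In DOPA/HFS it was −0.60 (SE 0.27, limma unadjusted p = 0.0496, adjusted p = 1; −0.03 to −0.98 within slides). The L-DOPA main effect was −0.47 (SE 0.19, unadjusted p = 0.0326, adjusted p = 1, exact permutation p = 0.08).

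Much of the Nog difference rested on 6-OHDA replicate 2, the highest of the 12 arrays. Without it the log2 fold change was −0.64 in DOPA, −0.30 in HFS and −0.32 in DOPA/HFS. That array also had the highest summed signal of the ependyma (13.2) and ventricular neuroblast (14.0) markers, against 11.1 to 12.1 and 13.2 to 13.4 on the other 6-OHDA arrays. Of the 4 neuroblast genes summed, Cd24 (13.9) and Dlx2 (5.38) were highest there. Dcx and Dlx1 read 9.91 and 7.29 there, below the 10.20 and 8.01 of 6-OHDA replicate 3. The part of either list was not tested. The second Nog probe read 7.43, 7.77 and 7.46 in 6-OHDA, 6.88, 7.09 and 7.61 in HFS, 6.68, 6.63 and 7.23 in DOPA and 7.67, 7.27 and 7.39 in DOPA/HFS. Its DOPA arrays were again below the 6-OHDA arrays (log2 fold change −0.71, SE 0.22), while its HFS and DOPA/HFS arrays overlapped them. Nog also stands in the study's L-DOPA list from these arrays. Chrd (chordin), the third antagonist, ranged from 6.51 to 7.26 with overlapping groups.

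**Figure D4:**
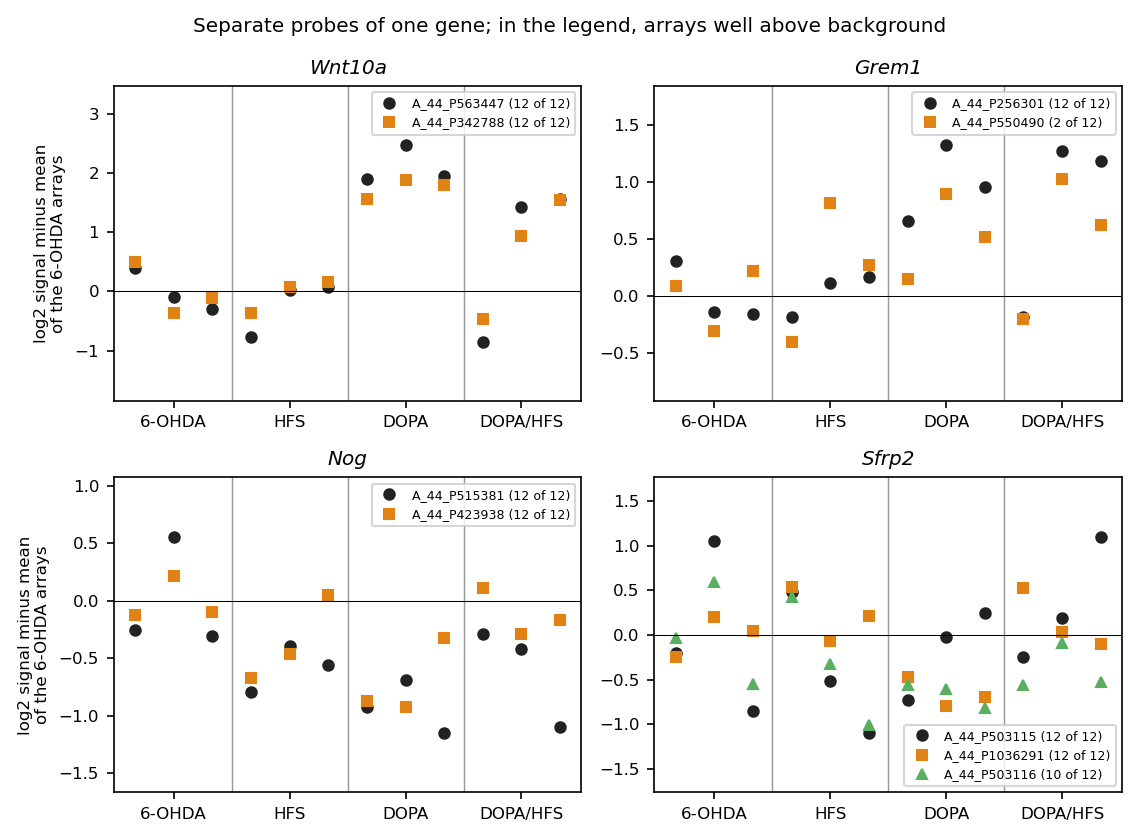
Log2 signal of each separate probe of Wnt10a, Grem1, Nog and Sfrp2 on the 12 arrays (horizontal axis, by group and in replicate order), minus the mean of the 6-OHDA arrays; the legend gives the arrays on which the probe was well above background. Both Wnt10a probes and both Nog probes have all DOPA arrays on the same side of 6-OHDA, and of the 3 Sfrp2 probes the brightest overlaps 6-OHDA in DOPA while the others lie below it.

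Bmp1 and Bmp2k, which are no ligand, receptor or antagonist, gave 1 value past an unadjusted p of 0.05. Bmp2k read 5.46, 4.36 and 5.22 in 6-OHDA, 5.29, 5.74 and 5.68 in HFS, 5.19, 4.84 and 4.91 in DOPA and 5.49, 5.22 and 5.16 in DOPA/HFS. The low 6-OHDA replicate 2 stood apart from the others, and the stimulation main effect of 0.43 (SE 0.18, limma unadjusted p = 0.0385, adjusted p = 0.911) was 0.27 without it, 0.07 with normexp background correction and 0.06 with the deposited values. Bmp1 ranged from 11.02 to 11.94.

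**Figure D5:**
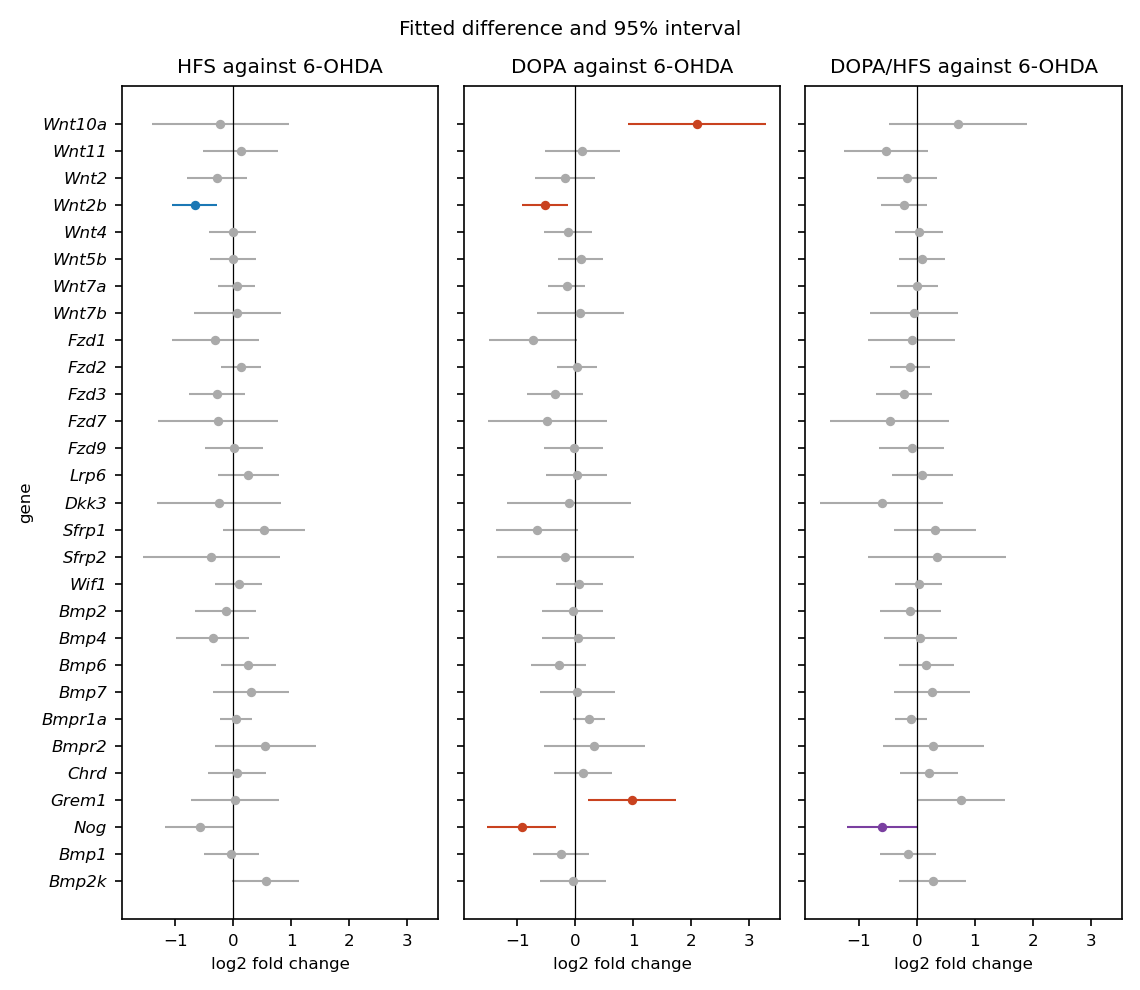
Log2 fold change against 6-OHDA (horizontal axis) of the 29 tested genes in HFS, DOPA and DOPA/HFS, with 95% intervals from limma; colour marks an unadjusted p under 0.05, and none passed after adjustment over all genes. Wnt10a at 2.11 in DOPA is the farthest from 0.

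Other genes of both pathways were counted for context, from lists of 50 further Wnt genes (29 tested) and 47 further BMP genes (37 tested), and limma called none of them in a comparison. At an unadjusted p under 0.05, 2 Wnt pathway genes were higher and 1 lower in HFS, 2 were higher and 0 lower in DOPA, and 0 passed in DOPA/HFS. Over all genes, 1.21% were higher and 1.14% lower in HFS, 1.32% and 1.27% in DOPA, and 0.828% and 1.92% in DOPA/HFS. Gsk3b, the kinase that marks β-catenin for destruction, was 0.52 higher in HFS and 0.50 higher in DOPA (log2, SE 0.21 for both, limma adjusted p = 0.998 and 1). The glypican Gpc3 was −0.56 in HFS (SE 0.20) and the cell cycle gene Ccnd1, a β-catenin target, 0.41 (SE 0.18). The secreted Frizzled-related Frzb was 1.05 in DOPA (SE 0.45, limma adjusted p = 1).

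Of the BMP pathway genes, 1 was higher and 1 lower in HFS, 1 was higher in DOPA and 0 passed in DOPA/HFS, against the same shares of all genes. Crim1, a membrane protein that binds BMPs, read 12.57, 12.32 and 12.50 in 6-OHDA and 12.81, 12.84 and 12.91 in DOPA (log2 fold change 0.39, SE 0.14, limma adjusted p = 1). Tob1, which restrains SMAD signalling, was −0.70 in HFS (SE 0.31). Sostdc1, an antagonist of both pathways, read 5.68, 5.57 and 5.5 in 6-OHDA and 12.44, 7.97 and 11.64 in HFS, with 5.25, 6.69 and 10.47 in DOPA and 6.03 to 6.65 in DOPA/HFS (log2 fold change in HFS 5.10, SE 1.26, limma adjusted p = 0.998). The summed signal (log2) of the choroid plexus markers read 16.4, 12.0 and 15.3 in HFS replicates 1 to 3, against 7.70, 10.5 and 13.9 in those of DOPA. This sum had the same order as Sostdc1 within both groups. Of the single markers, only Ttr (2.41, 10.3 and 13.8 in DOPA), Kcne2 and Kcnj13 had that order in both groups. The other markers were lower on DOPA replicate 2 than on DOPA replicate 1, though all were highest in DOPA on replicate 3. The part of these markers was not tested. For the Wnt pathway list the median log2 fold change was 0.07 after HFS, −0.02 for DOPA and 0.01 for the DOPA/HFS group, and for the BMP pathway list it was 0.02, −0.08 and 0.0041.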

How the data were processed

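Gene expression was measured on single-colour Agilent whole rat genome arrays, 1 per rat. The authors deposited the scanner intensities as Agilent Feature Extraction 9.1 wrote them, background-corrected and not normalized between arrays, and a table of log2 values that the authors had quantile normalized with control spots included, which served here as an alternative only. Groups were taken from the labels. The log2 of the processed intensity was quantile normalized after outlier spots and control spots were left out, spots of a probe were averaged, probes well above background on at least 0.4 of the arrays (5 of 12) were kept, and the brightest probe stood for each gene. The 4 groups were fitted together with limma 3.58.1 (R 4.3.3, jsonlite 2.0.0, and data.table, version 1.17.8), with Benjamini-Hochberg adjustment over 20408 genes. The fit was tested on simulated data. Figures and sequence windows were made with Python 3.11.15 and matplotlib 3.10.9.

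Fold changes were given for genes with an unadjusted p under 0.05, for those whose groups did not overlap with a fold over 1.2 or under 0.8, and for Fzd1, Nog and Sfrp2, which the study's lists name. Of the other pathway genes, those named were among the 3 with the smallest p in a comparison. The genes and all lists were chosen with earlier results of these data known. Exact permutation tests were two-sided. Nothing in the sources used here ties a replicate number to more than a slide. Over 18 pairs of same-numbered arrays, the correlation of deviations from the group means ran from −0.29 to 0.48 and was over 0.1 in 10. Its median was 0.11, against −0.07 for pairs with other numbers. Deviations within a group cancel out, so higher correlations in same-numbered pairs force lower correlations in the others. These medians are therefore not independent, and slides may share some variation. The main tests had no block because the study's methods describe none, and a fit with the block is given as an alternative. Differences within a slide are given as values only. Alternatives changed the scaling, the background correction, the dim probe filter, the choice of probe, the handling of outlier spots, the samples in the fit, the replicate block and single arrays. The number of arrays limits the precision, since the files hold no counts. Of the 73 probes, 23 matched a RefSeq accession, and the others keep the array's gene name.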

Additional observations from a re-analysis of the deposited data

Results flagged for a closer look

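For 3 of the 26 genes with all values, the effect of one treatment had opposite signs on every slide without and with the other treatment, as it had for 3.06% of the 18360 such genes over the whole array. Wnt2b differed with L-DOPA by −0.55, −0.61 and −0.40 (log2, slides 1 to 3) without stimulation and by 0.35, 0.06 and 0.94 with it, and the interaction was 0.97 (limma unadjusted p = 0.00279, adjusted p = 1), or 0.28 with the deposited values. Nog differed with stimulation by −0.54, −0.96 and −0.25 without L-DOPA and by 0.64, 0.27 and 0.06 with it, an interaction of 0.90 (limma unadjusted p = 0.0393, adjusted p = 1), or 0.57 with the deposited values. The second Nog probe had the same signs on slides 1 and 2, with HFS at 6.88 and 7.09 against 7.43 and 7.77 in 6-OHDA. There DOPA/HFS read 7.67 and 7.27 against 6.68 and 6.63 in DOPA. It did not share this pattern on slide 3, where HFS read 7.61 and 6-OHDA 7.46, and DOPA/HFS 7.39 and DOPA 7.23. Bmpr1a differed with L-DOPA by 0.25, 0.36 and 0.12 without stimulation and by −0.21, −0.08 and −0.13 with it, an interaction of −0.38 (limma unadjusted p = 0.0547, adjusted p = 1). The second Bmpr1a probe did not share this pattern. On slides 1 and 3 its DOPA arrays (6.04 and 5.99) were below its 6-OHDA arrays (6.26 and 6.08), as its DOPA/HFS arrays (6.07 and 5.39) were below its HFS arrays (6.29 and 6.35). None of the 3 interactions passed after adjustment.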

How the results depend on the processing

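The calls turned on DOPA/HFS replicate 1. Leaving out each array in turn gave 0 to 1 of the 29 genes called in DOPA against 6-OHDA, 0 to 2 in the L-DOPA main effect and 0 to 1 in the F test, all above 0 without that array only. Genes whose groups did not overlap then numbered 2 to 6 in HFS (6 without 6-OHDA replicate 3, where 18.3% of all genes did so, and 4 without HFS replicate 1, with 11.5% of all), 5 to 8 in DOPA (8 without 6-OHDA replicate 3, with 11.5% of all) and 0 to 4 in DOPA/HFS (4 without 6-OHDA replicate 3, with 11.8% of all, or without DOPA/HFS replicate 1, with 6.72%). In HFS this count was 1 with normexp background correction (1.74% of all genes) and 1 with the deposited log2 values (1.81%). In DOPA/HFS it was 1 with scaling to the 75th percentile (4% of all genes), 1 with the deposited values (3.03%), 1 with no filter on dim probes (3.17%) and 1 with outlier spots kept (3.97%). Sfrp2 in DOPA ran from −0.59 to 0.36, turning positive without 6-OHDA replicate 2 (0.36) and without DOPA replicate 1 (0.11). The 75th percentile scaling moved the median of all genes in DOPA/HFS to −0.18 and the deposited values moved it to −0.12, from −0.01, so the DOPA/HFS values under these settings are to be read against that shift. With the replicate number as a replicate block, no call on the 29 genes changed; the block cannot move a fold change where no array is missing, and for Nog in DOPA (−0.92) the limma unadjusted p was 0.00180 (adjusted p = 1). The block took the genes with an unadjusted p under 0.05, over all genes, from 561 to 1033 in DOPA/HFS and from 890 to 1412 in the stimulation main effect. Of the 12 arrays, 5 correlated best with their own number, a count that was not compared with random pairing. The L-DOPA main effect of Grem1 was 0.50 with the deposited values. The second probe, tried after seeing the data, gave −0.36 for Nog in HFS and −0.11 in DOPA/HFS.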
